A study of Mus musculus with 12 samples.

Results

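The genes described here are 10 members of the NF-κB system, 4 encoding subunits of the transcription factor (Rela, Relb, Nfkb1 and Nfkb2) and 6 encoding its inhibitors and feedback regulators (Nfkbia, Nfkbie, Nfkbiz, Nfkbid, Bcl3 and Tnfaip3). They were chosen by name from the 53465 genes of the expression table, and all 10 were read in all 12 libraries. The libraries come from LSKs (Lin- Sca-1+ c-Kit+ cells, the bone marrow fraction that holds hematopoietic stem cells and multipotent progenitors) of mice with and without Tespa1, a gene first described in thymocytes. There were 4 groups of 3 libraries. Untreated Tespa1+/+ LSKs came from wild-type mice and untreated Tespa1-/- LSKs from the knockout line B6.129S-Tespa1tm1Smoc, backcrossed to C57BL/6, in which the mutation is carried by every cell type. The study's methods describe its mice as males in young adulthood. The other groups were Tespa1+/+ and Tespa1-/- LSKs taken at day 9 after an injection of 5-fluorouracil (5-FU), an antimetabolite that kills dividing cells and forces the stem cell pool to rebuild the marrow. The labels do not say whether the 3 replicates of a group were separate mice, so the p-values measure only the spread between these libraries.

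NF-κB is a family of dimers of Rel proteins that wait in the cytoplasm, held by inhibitors of the IκB family. Signals from cytokine and Toll-like receptors activate the IκB kinase, the inhibitor is degraded, and the dimer enters the nucleus. Many of the genes it switches on encode its own restraints, above all IκBα (Nfkbia) and A20 (Tnfaip3), so the mRNA of these genes is widely read as a trace of the pathway. In hematopoietic stem cells the pathway is known for its part in survival and in the response to inflammation.

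The libraries held 22118154 to 28275079 counts on genes. Tespa1, the deleted gene, was at 43.0 to 49.8 CPM (counts divided by library size after TMM scaling) in untreated Tespa1+/+ and 34.5 to 34.95 CPM in untreated Tespa1-/- libraries. After 5-FU it was at 47.2 to 57.4 CPM in Tespa1+/+ and 17.3 to 20.8 CPM in Tespa1-/- libraries. Its reads were thus lower in every Tespa1-/- library than in any Tespa1+/+ library of the same treatment, and were not absent. By the edgeR test used below, the untreated log2 fold change was -0.42 (adjusted p = 0.0316). That call was lost in 6 of 13 alternatives, 5 of them leaving out 1 library (adjusted p up to 0.14). After 5-FU it was -1.47 (adjusted p = 9.38e-05), a call lost in 0 of 13. All 10 genes of a list of LSK and stem cell markers were above 3 counts in every library. Their sum was not level between groups: it was 1600 to 1672 CPM in untreated Tespa1+/+, 1332 to 1385 CPM in untreated Tespa1-/-, 1329 to 1374 CPM in Tespa1+/+ with 5-FU and 800.4 to 868 CPM in Tespa1-/- libraries with 5-FU. Markers of mature cells were also present and differed between groups: the 12 neutrophil markers summed to 21.4 to 34.5 CPM in untreated and 37.4 to 49.2 CPM in 5-FU libraries of Tespa1+/+ mice, and to 37.1 to 39.0 and 1090 to 1100 CPM in those of Tespa1-/- mice. The 8 erythroid markers summed to 9.65 to 19.2 CPM in untreated Tespa1+/+ and 30.8 to 36.9 CPM in untreated Tespa1-/- libraries, without overlap. With 5-FU they summed to 36.8 to 51.4 and 378 to 412 CPM in the same order of genotypes. The 8 B cell markers summed to 64.1 to 77.1 CPM in untreated Tespa1+/+ and 42.2 to 48.2 CPM in untreated Tespa1-/- libraries, without overlap. After 5-FU they summed to 287 to 299 and 327 to 344 CPM in the same order of genotypes. The part of such cells in the values below was not tested, and fewer cells of a type and less RNA per cell cannot be told apart in bulk libraries.

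The sequence in front of these genes was examined first, because NF-κB dimers bind a short motif that several of their feedback genes carry. The letters GGGNN followed directly by TTNCC were searched on both strands in RefSeq promoter windows of GRCm38.p6, each reaching from 250 bases before to 50 bases after a gene's start. Of 32851 windows, 4.79% held a match, and of the genes tested here that had a window, 6.39% held one in at least 1 window. Windows were at hand for 7 members, and 5 of these (Nfkbia, Nfkb2, Tnfaip3, Nfkbid and Bcl3) held a match. Nfkbie and Rela held none, and Nfkb1, Relb and Nfkbiz had no window. The first window of Nfkb2 held 3 matches, of which 2 overlap, and only 5 of all windows (0.0152%) held 3 or more. A match is a description of the letters and does not show binding. The 250 bases before the start are printed for 3 members that carry the motif close to the start, and for Nfkbie, whose window holds no match. Like theirs, its mRNA was highest in untreated Tespa1+/+ LSKs. Matches are in capitals.
Nfkb2, chr19:46304487-46304736, plus strand: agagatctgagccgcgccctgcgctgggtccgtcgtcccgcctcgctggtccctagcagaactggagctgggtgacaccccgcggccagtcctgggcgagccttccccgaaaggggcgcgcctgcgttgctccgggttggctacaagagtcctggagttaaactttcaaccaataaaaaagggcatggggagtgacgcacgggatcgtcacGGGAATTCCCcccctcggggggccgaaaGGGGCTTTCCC
Nfkbia, chr12:55492648-55492897, minus strand: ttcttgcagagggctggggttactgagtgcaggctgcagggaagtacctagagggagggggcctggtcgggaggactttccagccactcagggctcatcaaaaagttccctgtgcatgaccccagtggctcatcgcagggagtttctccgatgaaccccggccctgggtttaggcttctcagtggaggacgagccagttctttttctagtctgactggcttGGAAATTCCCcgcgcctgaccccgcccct
Tnfaip3, chr10:19015411-19015660, minus strand: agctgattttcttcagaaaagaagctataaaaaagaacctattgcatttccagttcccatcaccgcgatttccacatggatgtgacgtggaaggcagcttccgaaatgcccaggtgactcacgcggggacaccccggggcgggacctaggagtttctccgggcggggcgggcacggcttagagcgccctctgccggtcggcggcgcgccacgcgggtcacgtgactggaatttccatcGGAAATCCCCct
Nfkbie, chr17:45555450-45555699, plus strand: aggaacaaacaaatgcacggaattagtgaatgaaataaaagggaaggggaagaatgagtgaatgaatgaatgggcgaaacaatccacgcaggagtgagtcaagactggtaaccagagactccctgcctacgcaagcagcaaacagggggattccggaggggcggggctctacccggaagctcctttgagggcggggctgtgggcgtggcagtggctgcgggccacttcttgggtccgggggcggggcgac
In Nfkb2 the matches begin 39, 11 and 10 bases before the start, in Nfkbia 29 bases and in Tnfaip3 12 bases before it. A further match of Nfkb2 begins at base 11 counted from the second of its 3 annotated starts, which is 225 bases before the last. The match of Nfkbid lies 226 bases before another of its 3 annotated starts, and that of Bcl3 lies just after the start.

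The levels of the members differed widely within a library. The FPKM scale divides by a length given to each gene. This length was 1979 bases for Nfkbia, 2716 for Rela, 13958 for Tnfaip3 and 16227 for Nfkb1. The order of genes and the ratios between them depend on these lengths. In CPM, Tnfaip3 (461 on average) was above Nfkbia (433) in untreated Tespa1+/+ LSKs. In FPKM, Nfkbia was the highest in every group. It was at 216 ± 11.6 FPKM (SD, n = 3) without and 108 ± 4.71 FPKM with 5-FU in Tespa1+/+ LSKs, and 136 ± 2.85 and 105 ± 8.03 FPKM in Tespa1-/- LSKs. In untreated Tespa1+/+ LSKs it was followed by Nfkbiz (62.3 FPKM), Nfkbid (52.4), Rela (49.1), Nfkbie (45.6), Nfkb2 (34.2), Tnfaip3 (32.6), Nfkb1 (14.1), Bcl3 (4.67) and Relb (1.79). The ranges of the libraries overlapped between Nfkbiz and Nfkbid, between Nfkbid and Rela and between Nfkb2 and Tnfaip3, so the order of these neighbours is not separated by the replicates. Bcl3 had rank 9 and Relb rank 10 in all 4 groups, whereas the middle of the order changed: Rela had rank 4 in untreated Tespa1+/+ and rank 2 in Tespa1-/- LSKs after 5-FU. Rela was below Nfkbiz with no overlap in both groups of Tespa1+/+ LSKs, overlapped with it in untreated Tespa1-/- LSKs (32.5 to 36.0 against 32.5 to 35.2 FPKM) and was above it in Tespa1-/- LSKs after 5-FU (29.98 to 35.8 against 23.9 to 26.7 FPKM).

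**Figure D1:**
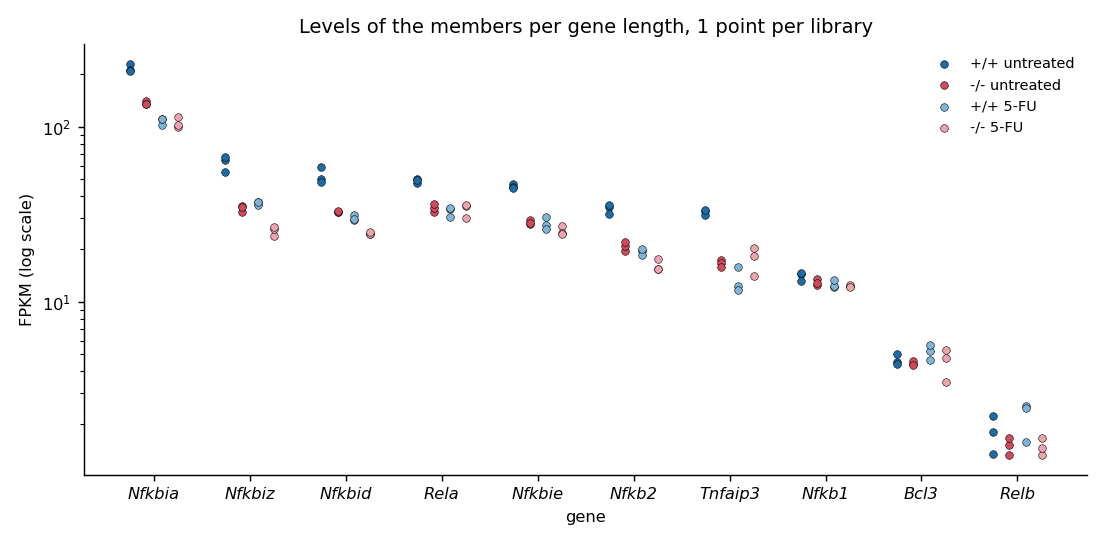
Level of each member in FPKM (log axis) in the 12 libraries, 1 point per library, coloured by group; genes are ordered by their mean in untreated Tespa1+/+ LSKs. Nfkbia lies above all other members in every group (105 to 216 FPKM by group mean), and Relb is lowest (1.49 to 2.19 FPKM).

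Within a library, the FPKM of Nfkbia stood to that of Rela, the main activating subunit it restrains, at 4.41 ± 0.174 (SD, n = 3) in untreated Tespa1+/+ and 3.98 ± 0.29 in untreated Tespa1-/- LSKs. With 5-FU the ratio was 3.32 ± 0.311 and 3.14 ± 0.29 in the same order of genotypes. The untreated groups overlapped in this ratio (4.22 to 4.56 against 3.72 to 4.29), while each untreated library lay above each library after 5-FU. The ratio of Nfkb1, the precursor of p50, to Rela went the other way: it was 0.277 to 0.297 in untreated Tespa1+/+ and 0.348 or more in all 9 other libraries.

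Across the 4 groups, most members shared one pattern, with the highest level in untreated Tespa1+/+ LSKs. For 7 members (Rela, Nfkb2, Nfkbia, Nfkbie, Nfkbiz, Nfkbid and Tnfaip3) the 3 libraries of this group lay above all 9 others, which held for 5.16% of the 18696 genes tested over all libraries. Nfkb1, Relb and Bcl3 did not show it. In the same 7 genes the mean CPM of the other groups was between 0.394 and 0.695 of that in untreated Tespa1+/+ LSKs.

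**Figure D2:**
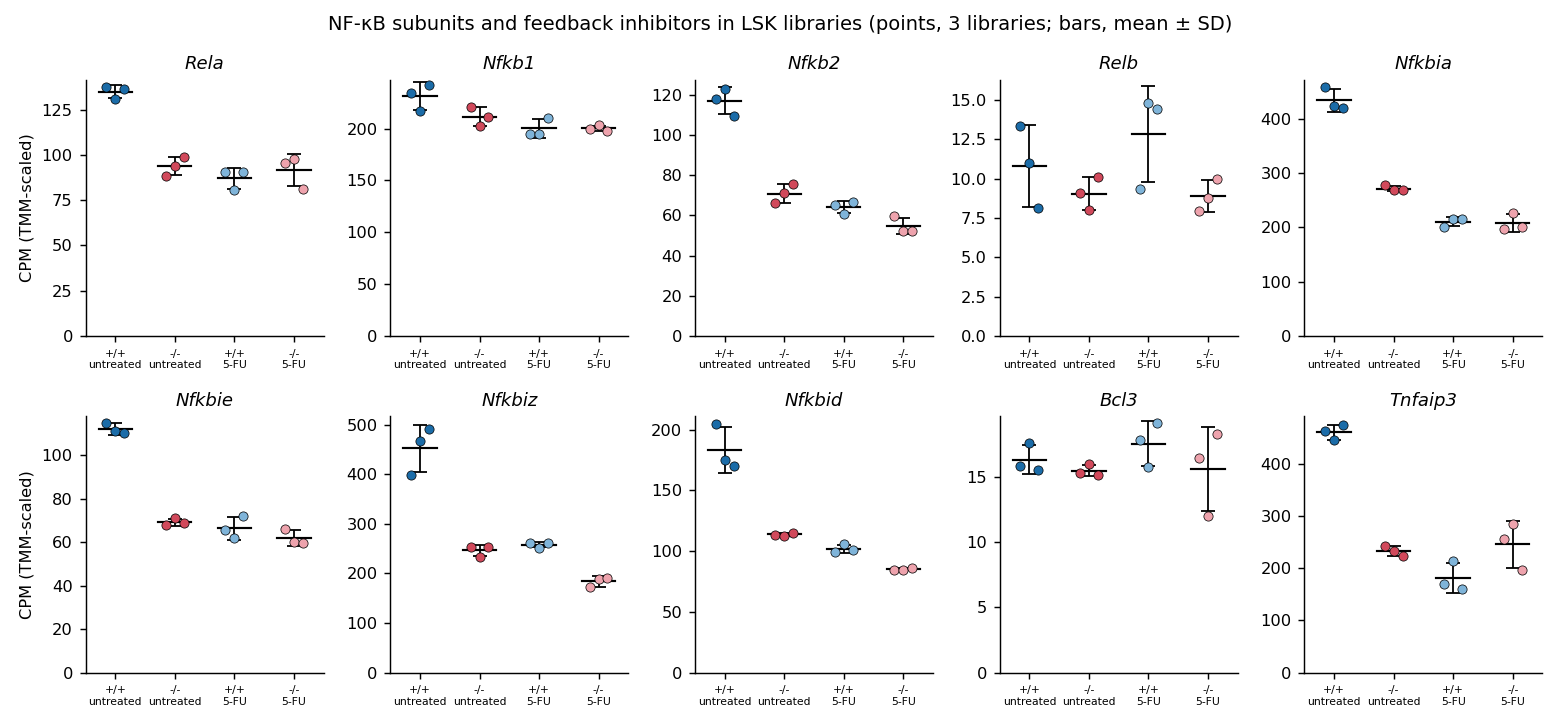
TMM-scaled CPM of the 10 members in the 12 libraries; points are libraries, horizontal lines the mean and bars the SD of 3 libraries, with a separate linear axis from 0 for each gene. In 7 genes the untreated Tespa1+/+ libraries lie above all others, with Tnfaip3 at 446 to 474 CPM against 160 to 285 CPM elsewhere.

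Whether the loss of Tespa1 changed the members in unstressed mice was asked by comparing the untreated groups with edgeR's quasi-likelihood test, with p-values adjusted over all genes by the Benjamini-Hochberg method. Of the 10 members, 7 were lower in Tespa1-/- LSKs, 0 were higher (also 0 at an unadjusted p below 0.05 and with DESeq2) and 3 did not pass an adjusted p of 0.05. Of all 17055 genes tested, 3.59% were lower. The median log2 fold change of the members was -0.68, against 0.01 over all genes tested, and the libraries of both genotypes were apart in the same 7 members, each lower, against 13.4% of all genes. A fold above 1.5 was reached by 6 of them, Rela being the exception, against 1.54% of all genes.

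Among the subunits, Rela (p65), which carries the transactivation domain of the common dimer, was at 138, 131 and 136 CPM in Tespa1+/+ and 88.7, 93.9 and 98.8 CPM in Tespa1-/- libraries. The groups did not overlap, and the log2 fold change was -0.52 (SE 0.06, adjusted p = 0.00268). Nfkb2, the precursor of p52 in the non-canonical pathway and itself a target of NF-κB, had 118, 123 and 110 CPM in Tespa1+/+ and 66.1, 71.0 and 75.5 CPM in Tespa1-/- libraries. Every Tespa1-/- library was again below, with a log2 fold change of -0.72 (SE 0.08, adjusted p = 0.00128).

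Nfkb1 was at 235, 217 and 242 CPM in Tespa1+/+ against 221, 202 and 211 CPM in Tespa1-/- libraries. These ranges overlapped, and the log2 fold change of -0.13 (95% interval -0.26 to 0.01) did not pass the test (adjusted p = 0.306). Relb, the partner of p52, was at 13.3, 10.98 and 8.15 CPM against 9.08, 7.98 and 10.1 CPM, and its interval of -0.74 to 0.23 includes the value of Rela as well as 0. The gene model Gm43430 lies on the same strand within the span of Nfkb1 and was counted separately. It had 28.4 CPM on average in Tespa1+/+ and 12.7 CPM in Tespa1-/- libraries (log2 fold change -1.16, adjusted p = 0.0158). Without Tespa1-/- replicate 1 or 2 the adjusted p was 0.0569 and 0.0888. Reads of Nfkb1 and of this model may have been split by the counting.

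Both classical IκB inhibitors among the members were lower. Nfkbia was at 458, 422 and 420 CPM in Tespa1+/+ and 277, 269 and 268 CPM in Tespa1-/- libraries, with a wide gap between the groups and a log2 fold change of -0.67 (SE 0.05, adjusted p = 0.000196). Nfkbie, which encodes IκBε, a slower inhibitor of Rel-containing dimers, had 115, 111 and 110 CPM against 67.7, 70.9 and 68.9 CPM. Replicates were close to each other and the groups far apart, with a log2 fold change of -0.69 (SE 0.06, adjusted p = 0.000482).

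The atypical IκB proteins act in the nucleus, where they adjust which targets the dimers switch on. Nfkbiz (IκBζ) was at 399, 467 and 491 CPM in Tespa1+/+ and 253, 233 and 253 CPM in Tespa1-/- libraries. In spite of the spread in Tespa1+/+, no library crossed over, and the log2 fold change was -0.87 (SE 0.08, adjusted p = 0.000559). Nfkbid (IκBNS) had 205, 175 and 170 CPM against 113, 113 and 115 CPM, a log2 fold change of -0.69 (SE 0.08, adjusted p = 0.00171). Bcl3, which binds p50 and p52 homodimers, was at 15.8, 17.6 and 15.5 CPM against 15.3, 15.97 and 15.1 CPM. These libraries overlapped, and the interval of its log2 fold change was -0.36 to 0.21, which does not reach the size seen for Nfkbiz or Nfkbid.

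Tnfaip3 encodes A20, a ubiquitin-editing enzyme that shuts off signalling upstream of the IκB kinase. It was at 463, 446 and 474 CPM in Tespa1+/+ and 243, 234 and 224 CPM in Tespa1-/- libraries, and so at 0.507 of the Tespa1+/+ level. This was the largest change among the members (log2 fold change -0.98, SE 0.05, adjusted p = 3.31e-05), and no Tespa1-/- library came near the Tespa1+/+ range.

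Genes that respond early to the handling of cells moved in the same direction. A list of 15 such genes (Fos, Jun, Junb, Egr1 and others, including heat shock genes) summed to 10970 to 11460 CPM in untreated Tespa1+/+ libraries and 8200 to 8283 CPM in untreated Tespa1-/- libraries. With 5-FU the sums were 7801 to 7937 and 6580 to 6844 CPM in the same order of genotypes. In untreated LSKs 11 of the 15 were lower in Tespa1-/- (73.3%, against 3.59% of all genes) and 1, the heat shock gene Hspa1b, was higher (6.67%, against 1.64%). After 5-FU 8 of them were lower in Tespa1-/- than in Tespa1+/+ LSKs (53.3%, against 5.78%). The LSK and stem cell markers also had 3 of 10 genes lower in untreated Tespa1-/- LSKs (30.0%, against 3.59% of all genes), with a median log2 fold change of -0.29. Of 7 B cell markers tested, 3 were lower (42.9%, against 3.59%), and of 8 erythroid markers 1 was higher (12.5%, against 1.64%). The part of these lists in the result was not tested.

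The same question was asked at day 9 after 5-FU. Of the 10 members 2, Nfkbiz and Nfkbid, were lower in Tespa1-/- LSKs and 0 were higher, against 5.78% of 17239 genes that were lower and 7.34% that were higher. At an unadjusted p below 0.05, 1 member (Tnfaip3) was higher, and DESeq2 called 0. The median log2 fold change of the members was -0.14, against -0.01 over all genes tested. Of the LSK and stem cell markers, 7 of 10 were lower in Tespa1-/- LSKs here (70.0%, against 5.78% of all genes), with a median of -0.81, and their part in the members' values was not tested. By the separation of libraries, 3 members (Nfkbiz, Nfkbid and Nfkb2) were lower, against 15.5% of all genes. None of the calls reached a fold above 1.5, which 3.03% of all genes did downward.

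Nfkbiz was at 261, 252 and 262 CPM in Tespa1+/+ and 172, 188 and 191 CPM in Tespa1-/- libraries after 5-FU. The groups were clearly apart, with a log2 fold change of -0.49 (SE 0.06, adjusted p = 0.000631). Nfkbid had 99.3, 106 and 101 CPM against 84.5, 84.7 and 86.4 CPM, a log2 fold change of -0.26 (SE 0.06, adjusted p = 0.0263). The libraries did not overlap, but its adjusted p was between 0.0627 and 0.0917 when any 1 library other than Tespa1+/+ replicate 1 was left out, so the call does not withstand the loss of a library.

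Tnfaip3 was scattered between replicates. It was at 169, 215 and 160 CPM in Tespa1+/+ and 256, 285 and 197 CPM in Tespa1-/- libraries after 5-FU, so that the lowest Tespa1-/- library lay below the highest Tespa1+/+ library. The log2 fold change was 0.43 (95% interval 0.11 to 0.75, adjusted p = 0.0802) and did not pass. Without Tespa1+/+ replicate 2 it was 0.58 (adjusted p = 0.0392) and without Tespa1-/- replicate 3 it was 0.57 (adjusted p = 0.0247).

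The remaining members after 5-FU did not pass the test. Nfkb2 was at 65.0, 60.9 and 66.7 CPM against 59.5, 52.4 and 52.3 CPM, with a log2 fold change of -0.23 (adjusted p = 0.127). Nfkbia was at 200, 215 and 215 CPM against 197, 227 and 201 CPM, and the interval of its difference, -0.17 to 0.14, does not include the change found in untreated LSKs. For Rela the interval was -0.14 to 0.27, for Nfkb1 -0.13 to 0.12 and for Nfkbie -0.31 to 0.10. Relb had 9.32, 14.8 and 14.4 CPM against 7.97, 8.80 and 9.98 CPM, and the interval of its difference ran from -1.03 to -0.03 (adjusted p = 0.162). Bcl3 had 17.8, 15.7 and 19.1 CPM against 16.5, 12.01 and 18.3 CPM, with an interval of -0.60 to 0.25 (adjusted p = 0.616).

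**Figure D3:**
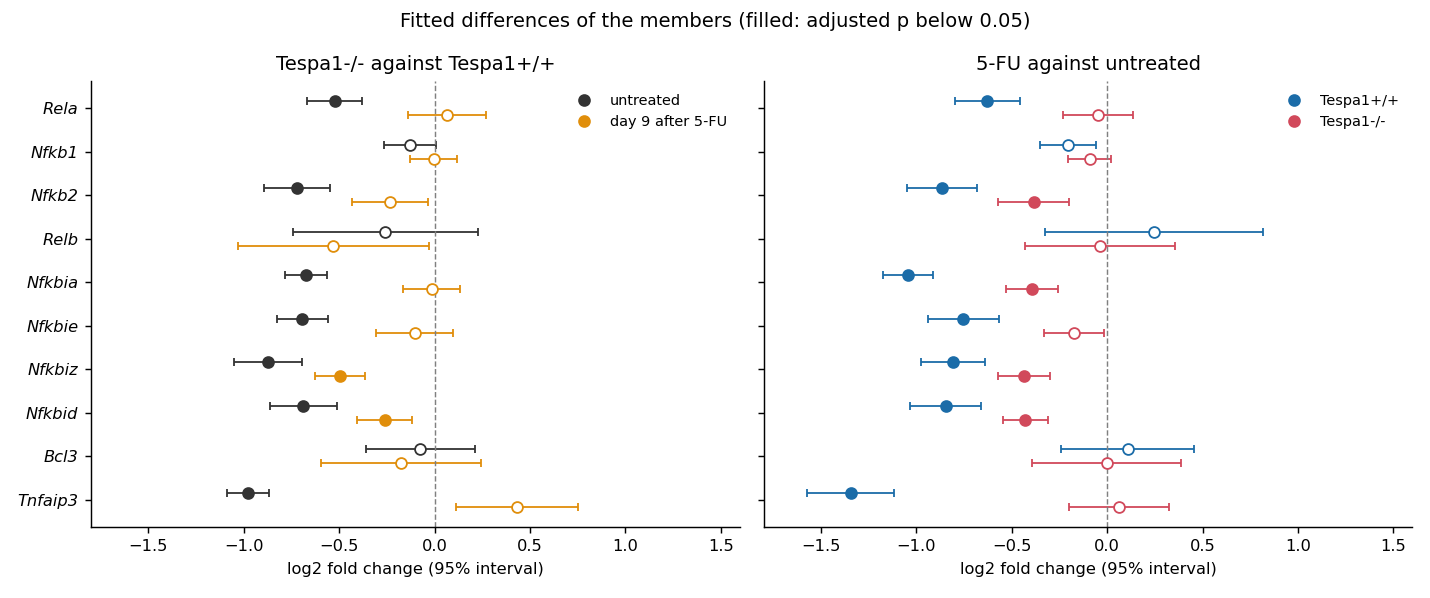
Log2 fold changes of the 10 members with 95% intervals; left, Tespa1-/- against Tespa1+/+ in untreated LSKs (dark) and after 5-FU (orange); right, 5-FU against untreated in Tespa1+/+ (blue) and Tespa1-/- LSKs (red). Filled points passed an adjusted p of 0.05: 7 and 2 in the left panel, 7 and 4 in the right panel, all of them below 0.

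The effect of 5-FU itself was compared within each genotype. In Tespa1+/+ LSKs 7 members were lower after 5-FU, 0 were higher with edgeR (0 also at an unadjusted p below 0.05 and with DESeq2) and 3 did not pass, against 4.18% of 17002 genes that were lower. All 7 changed by more than 1.5-fold, as 1.69% of all genes did. This comparison uses the same untreated Tespa1+/+ libraries as the untreated comparison of genotypes, so the 2 sets of values are not independent. Of the 15 early-response genes, 12 were lower with 5-FU in Tespa1+/+ LSKs (80.0%, against 4.18% of all genes) and 12 in Tespa1-/- LSKs (80.0%, against 8.64%), and their part in the members' values was not tested. Tnfaip3 fell most, with a log2 fold change of -1.34 (SE 0.10, adjusted p = 8.03e-05), which left 0.394 of the untreated level. Nfkbia followed with -1.04 (SE 0.06, adjusted p = 1.8e-05). The atypical IκB genes Nfkbid and Nfkbiz changed by -0.85 and -0.81, and Nfkbie by -0.75. Of the subunits, Nfkb2 changed by -0.87 and Rela by -0.63, while Nfkb1 was at 195, 195 and 210 CPM after 5-FU, below each untreated library, with a log2 fold change of -0.21 (adjusted p = 0.0916). Relb (0.25, interval -0.32 to 0.82) and Bcl3 (0.11, interval -0.24 to 0.45) did not pass.

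In Tespa1-/- LSKs, 4 members were lower after 5-FU by edgeR and DESeq2 and 0 were higher (0 also at an unadjusted p below 0.05), against 8.64% of 17228 genes that were lower. These were Nfkbiz (log2 fold change -0.44, SE 0.06, adjusted p = 0.0012), Nfkbid (-0.43, SE 0.05, adjusted p = 0.000633), Nfkbia (-0.39, SE 0.06, adjusted p = 0.0023) and Nfkb2 (-0.38, SE 0.08, adjusted p = 0.0111). None of them changed by more than 1.5-fold, against 4.07% of all genes. The call of Nfkb2 was lost without untreated Tespa1-/- replicate 3 (adjusted p = 0.0507). Tnfaip3 was at 224 to 243 CPM before and 197 to 285 CPM after 5-FU, with an interval of -0.20 to 0.32, and Rela had an interval of -0.23 to 0.14.

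The difference between these contrasts was tested as the interaction of genotype and treatment over all 12 libraries. It passed an adjusted p of 0.05 with a value above 0 for 7 members, meaning that the genotype difference after 5-FU was less negative or more positive than in untreated LSKs, against 3.02% of 18696 genes. It was largest for Tnfaip3, at 1.42 (SE 0.17, adjusted p = 0.00036), followed by Nfkbia at 0.66 (SE 0.08, adjusted p = 0.000517). Rela (0.59, adjusted p = 0.00779) and Nfkbie (0.59, adjusted p = 0.00419) passed as well. These 4 also exceeded a 1.5-fold difference, against 1.66% of all genes, and kept an adjusted p below 0.05 whichever of the 12 libraries was left out. For Nfkb2 (0.49), Nfkbid (0.43) and Nfkbiz (0.38) the call depended on single libraries: it was lost on leaving out 5, 8 and 10 of the 12 libraries in turn, with adjusted p up to 0.0735, 0.0664 and 0.115. For Nfkb2 these libraries were replicate 2 of untreated Tespa1+/+, replicates 1 and 2 of untreated Tespa1-/-, replicate 2 of Tespa1+/+ with 5-FU and replicate 1 of Tespa1-/- with 5-FU. The call of Nfkbid held without any 1 of the untreated Tespa1+/+ libraries or replicate 2 of Tespa1+/+ with 5-FU, and that of Nfkbiz without replicate 1 of untreated Tespa1+/+ or of Tespa1-/- with 5-FU. Of the 15 early-response genes, 4 passed the same test with a value above 0 (26.7%, against 3.02% of all genes), and their part in the members' values was not tested. The number of members past the threshold was 4 without untreated Tespa1-/- replicate 1 or 2.

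Other genes of the pathway, from lists compiled from general knowledge, were read beside the members. Rel, which encodes c-Rel, the remaining subunit of the family, was at 206, 205 and 224 CPM in untreated Tespa1+/+ and 115, 125 and 121 CPM in untreated Tespa1-/- libraries. It was lower in Tespa1-/- LSKs both untreated (log2 fold change -0.81, SE 0.06, adjusted p = 0.000216) and after 5-FU (-0.61, SE 0.09, adjusted p = 0.00243). For Rel the interaction did not pass (0.21, adjusted p = 0.354). Nfkbib, encoding IκBβ, an inhibitor that is not induced strongly, did not pass in either comparison of genotypes (-0.28, adjusted p = 0.179, and 0.28, adjusted p = 0.171). Its interaction passed narrowly (0.57, SE 0.15, adjusted p = 0.0483), a call lost on leaving out any 1 library other than Tespa1+/+ replicate 1 with 5-FU (adjusted p up to 0.126).

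Of 11 kinase genes, including those of the IκB kinase complex, 1 was lower in untreated Tespa1-/- LSKs (9.09%, against 3.59% of all genes) and 2 after 5-FU (18.2%, against 5.78%). Map3k8, encoding the kinase TPL2, which is held by p105, was at 43.5, 52.7 and 51.1 CPM in untreated Tespa1+/+ and 25.9, 23.4 and 31.0 CPM in untreated Tespa1-/- libraries (log2 fold change -0.87, adjusted p = 0.00703). After 5-FU it changed by -0.82 (adjusted p = 0.0335), and Map3k14, encoding NIK of the non-canonical pathway, by -0.51 (adjusted p = 0.0197). Neither call after 5-FU held when single libraries were left out: that of Map3k8 was lost without replicate 1 or 3 of either genotype (adjusted p up to 0.117), and that of Map3k14 without any library but Tespa1-/- replicate 1 (adjusted p up to 0.0742).

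Of 27 genes for adaptors and ubiquitin enzymes, 7 were lower in untreated Tespa1-/- LSKs (25.9%, against 3.59% of all genes). After 5-FU 2 were lower, and this 7.41% is near the 5.78% of all genes, so it is no result about the list. Malt1, a protease and scaffold in antigen receptor signalling, fell from 162 ± 16.4 to 72.4 ± 8.72 CPM (SD, n = 3) in untreated LSKs (log2 fold change -1.16, adjusted p = 0.000597). After 5-FU its difference was -0.49 (adjusted p = 0.0253), a call lost without Tespa1+/+ replicate 1 or 3 or Tespa1-/- replicate 1 or 2 (adjusted p up to 0.0868). Tnip3, encoding a partner of A20, was lower after 5-FU (-1.19, adjusted p = 0.0052). Its untreated difference of -0.99 (adjusted p = 0.0464) was lost without any 1 library other than Tespa1-/- replicate 2 (adjusted p up to 0.169).

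Of 13 receptor genes tested, 0 passed in untreated LSKs with edgeR (0 also at an unadjusted p below 0.05 and with DESeq2), and 3 were lower in Tespa1-/- LSKs after 5-FU (23.1%, against 5.78% of all genes). Tlr7, encoding a receptor for single-stranded RNA, was at 20.9, 17.6 and 16.9 CPM in Tespa1+/+ and 2.56, 6.67 and 2.84 CPM in Tespa1-/- libraries after 5-FU (log2 fold change -2.20, adjusted p = 0.00309). Tnfrsf13c, the receptor for the B cell survival factor BAFF, had a difference of -1.13 (adjusted p = 0.0178), which was lost without Tespa1+/+ replicate 3 or Tespa1-/- replicate 2 or 3 (adjusted p up to 0.069).

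Genes known as targets of NF-κB outside the members were read last. In untreated LSKs 12 of 27 tested were lower in Tespa1-/- (44.4%, against 3.59% of all genes) and 1 was higher (3.7%, against 1.64%), and the list's median was -0.45 on the log2 scale. Cxcl2, a chemokine, was at 128, 123 and 132 CPM in Tespa1+/+ and 54.4, 57.4 and 55.7 CPM in Tespa1-/- libraries (log2 fold change -1.19, adjusted p = 3.31e-05). Ptgs2, encoding the prostaglandin enzyme COX-2, had 85.7, 89.8 and 84.8 CPM against 38.6, 35.8 and 40.1 CPM (-1.18, adjusted p = 9.64e-05). After 5-FU 5 of 31 were lower (16.1%, against 5.78%) and 3 higher (9.68%, against 7.34%), with a median of 0.00. The cytokine genes Il1b and Il6 were among the higher, at no more than 2.89 CPM in any library: Il1b was at 1.4 to 2.3 CPM in Tespa1-/- and at most 0.0771 CPM in Tespa1+/+ libraries, and Il6 at 1.49 to 2.89 CPM and at most 0.39 CPM. The call of Il6 was lost without any library but Tespa1+/+ replicate 1 (adjusted p up to 0.109). Il1b and Il6 passed the filter on low counts only in comparisons that hold the Tespa1-/- libraries after 5-FU, where they are high, and without them 1 of 29 target genes was higher. That gene was Vcam1, higher in Tespa1-/- LSKs after 5-FU (log2 fold change 2.46, adjusted p = 0.000119). It was not refitted with single libraries left out. Neutrophil markers were high in these same Tespa1-/- libraries, as given above, and their part in these values was not tested. With 5-FU 13 of 27 target genes were lower in Tespa1+/+ LSKs (48.1%, against 4.18% of all genes) and 1 was higher (3.7%, against 3.77%). In Tespa1-/- LSKs 11 of 29 were lower (37.9%, against 8.64%) and 6 were higher (20.7%, against 10.7%), or 4 of 27 without Il1b and Il6. The interaction passed the test with a value above 0 for 11 of 31 (35.5%, against 3.02%), or 10 of 29 without these genes, and with a value below 0 for 1 (3.23%, against 1.99%).

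**Figure D4:**
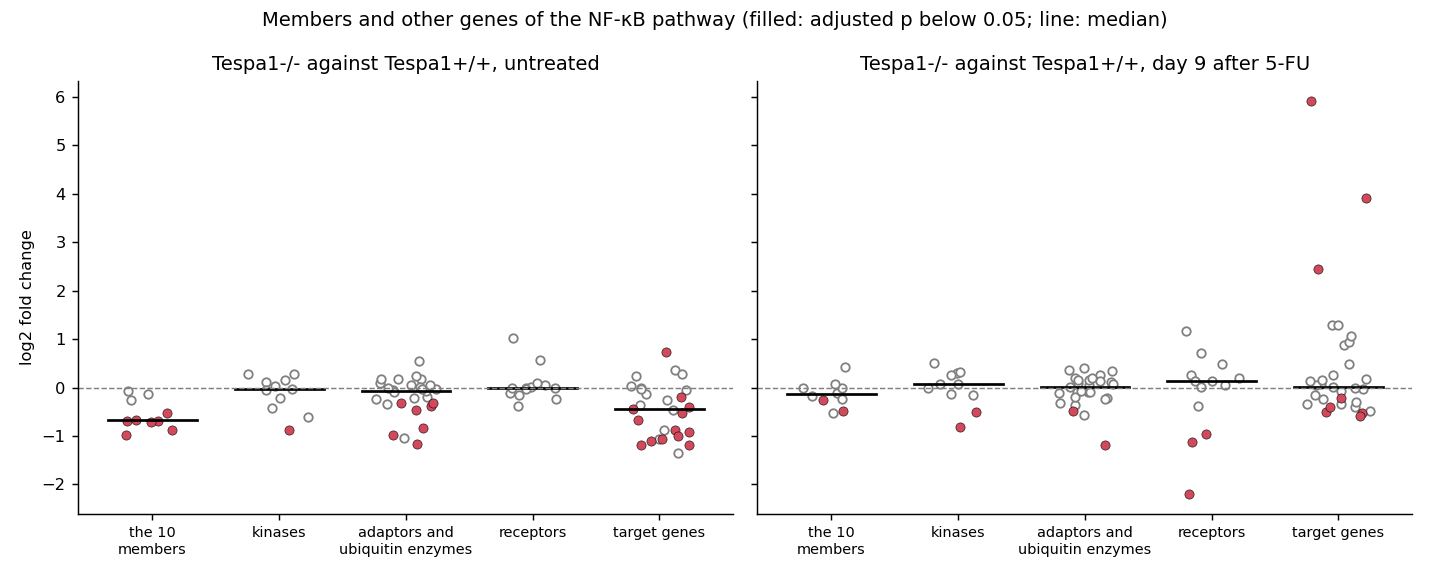
Log2 fold changes of Tespa1-/- against Tespa1+/+ LSKs for the 10 members and for 4 lists of other pathway genes, untreated (left) and after 5-FU (right); 1 point per gene tested, filled where the adjusted p is below 0.05, with a line at the median. In untreated LSKs 7 members, 12 target genes, 7 adaptor and ubiquitin enzyme genes, 1 kinase gene and 0 receptor genes are filled below 0; points are spread at random within a column.

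The genes whose pattern over the 12 libraries was most like that of a member were found by the root mean square difference of log2 CPM profiles, each centred on its own mean, among genes with a mean of at least 5 CPM. Nfkbia was closest to Chka, a choline kinase gene, with a difference of 0.0536, beside a root mean square of 0.433 of its own centred profile. Nfkbiz was closest to Zfp36, encoding an mRNA-degrading protein (0.0888 beside 0.475), and Tnfaip3 to Cebpb, a transcription factor gene (0.174 beside 0.52). Junb, encoding an AP-1 subunit, was closest to both Nfkbid (0.0845 beside 0.411) and Nfkb2 (0.0929 beside 0.414), and the next closest to each of these members was the other (0.0958). Nfkbie was most like Pim1 (0.0827 beside 0.342) and Rela like Atf4 (0.0892 beside 0.263). The profiles of Nfkb1 and Bcl3 were flatter, so that small differences say less: Nfkb1 was most like Eid1 (0.0398 beside 0.0984) and Bcl3 like Naa30 (0.101 beside 0.161). Relb was most like Capn2 (0.155 beside 0.295). All profiles share the same libraries, so these values describe likeness within this data set.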

How the data were processed

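RNA was isolated from LSKs, and paired-end poly-A libraries were made with a stranded kit, per the labels. The submitters' processing notes name CASAVA 1.8, HISAT2, StringTie, edgeR and GRCm38. Whether the counting used strand is not given in the sources used here, so reads of overlapping genes on the other strand may be among those of Nfkb2 and Bcl3. Psd, over Nfkb2, was counted apart at 0.155 to 1.05 CPM by group mean. Over Bcl3, Gm16174 was at 0.918 to 1.67 CPM and Gm16175 at no more than 0.0439 CPM. AC114539.1, which also overlaps Nfkb2, had no values of its own. The authors deposited raw counts per gene and FPKM values for 12 libraries. Depth was 22118154 to 28275079 counts (median 23401715); a floor of 3 counts covers counting error only. FPKM were used for levels between genes. Counts were filtered (filterByExpr, minimum count 10), scaled by TMM and tested with edgeR 4.0.16 (quasi-likelihood) in R 4.3.3 on the 6 libraries of each comparison, and on all 12 for the interaction, with Benjamini-Hochberg adjustment over all genes. Standard errors and 95% intervals are those of the fitted log2 fold change. All 10 members passed the filter in every comparison. The test was checked on simulated data for the untreated comparison. Alternatives were DESeq2 1.42.0, RLE size factors, library totals, 2 other filters, 1 fit of all libraries, a replicate block, each library left out and thresholds with a 1.5-fold change. All members are named; of the other lists, up to 2 genes with the largest absolute change among those that passed, per genotype comparison. Gm43430 was named because it overlaps Nfkb1, and Hspa1b and Vcam1 after their values were seen. Profiles for likeness used a pseudocount of 0.5. Positions of 8 of 10 members equal those of GENCODE M21. The members and lists were chosen with earlier results of these data known. Motifs were counted in RefSeq promoter windows.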

Additional observations from a re-analysis of the deposited data

Results flagged for a closer look

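The genotype difference in log2 CPM after 5-FU minus that in untreated LSKs passed the interaction test of edgeR for 7 members. It was 1.42 for Tnfaip3, whose difference went from -0.98 to 0.43. For Nfkbia it was 0.66, with -0.67 in untreated LSKs and -0.02 after 5-FU. For Rela it was 0.59, with -0.52 and 0.07. For Nfkbie it was 0.59, with -0.69 and -0.10. For Nfkb2 it was 0.49, for Nfkbid 0.43 and for Nfkbiz 0.38, and these 3 lost the call when 5, 8 and 10 of the 12 libraries, one at a time, were omitted. In Nfkbiz and Nfkbid both treatments had a lower level in Tespa1-/- LSKs.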

How the results depend on the processing

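The 7 calls of untreated LSKs and the 7 calls of 5-FU in Tespa1+/+ LSKs passed in every alternative that tests them without a fold threshold. With a 1.5-fold change, at an unadjusted or an adjusted p below 0.05, 6 members were lower in untreated Tespa1-/- LSKs, 0 in the comparison after 5-FU, 7 after 5-FU in Tespa1+/+ and 0 in Tespa1-/- LSKs, and 4 passed the interaction. After 5-FU, 1 member was lower without a filter on low counts and under the replicate block, and 1 to 2 when single libraries were left out; 1 (Tnfaip3) was higher in the fit of all 12 libraries and under the block, and 0 to 1 when single libraries were left out. The interaction gave 4 to 7 when single libraries were left out, and Nfkbiz missed it with library totals (adjusted p = 0.0711). Under the replicate block Tnfaip3 after 5-FU had an adjusted p of 0.0125 and Nfkbid 0.0663. Same-numbered libraries did not deviate together (r of -0.0762 to 0.0378 over 18 pairs, against -0.042 to 0.0577 over 36 pairs of other numbers). These values gave no sign of a pairing by number, but with 3 libraries per group they cannot exclude it. Nfkb1 passed for 5-FU in Tespa1+/+ LSKs in the fit of all libraries (adjusted p = 0.0294).

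Values that changed sign never passed the threshold. For the genotype difference after 5-FU, Nfkb1 was 0.00428 without a filter and -0.0206 to 0.0322 when libraries were left out, and Nfkbia -0.0807 to 0.0273. For 5-FU in Tespa1-/- LSKs, Bcl3 was 0.00600 with DESeq2, 0.0128 with library totals, 0.00206 without a filter, 0.00895 with all libraries and -0.132 to 0.157 when libraries were left out, Tnfaip3 -0.0562 to 0.199, Relb -0.124 to 0.0482 and Rela -0.0934 to 0.0306. The interaction of Bcl3 ran from -0.242 to 0.045. The cause was not tested. The order of levels was the same with TMM-scaled CPM per length. That measure uses the lengths behind the FPKM, so it cannot test the order against other lengths. For other genes the same alternatives were chosen after seeing the data. Relb had 180 to 384 counts per library and its CPM a CV of 11.3 to 24.0% within groups; the part of depth in this spread was not tested.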
